A study of Homo sapiens with 12 samples.

Results

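The deposited table of TC-71 cells, a human Ewing sarcoma line, counts reads over transcribed intervals of the genome, and many of those intervals carry no gene symbol. The rows described here have no symbol, lie outside the mitochondrial chromosome, average at least 10 normalised reads over the 12 libraries, and share at least 1 base with a named row that passes the same minimum. They number 1880, which is 59.6% of the 3153 unnamed nuclear rows at that level, in a table of 78885 rows. They were chosen by their mean over all 12 libraries, so their levels are given as a description without a test. Just outside that minimum lay rows over MICAL3 (9.99 normalised reads), MIR99AHG (9.99) and GOT2 (9.99), and just inside it rows over HNRNPM (10.01), TMEM59 (10.03) and UNC13B (10.03).

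The 12 libraries form 4 groups of 3 biological replicates of wild-type TC-71 cells. One pair of groups was kept for 16 hours in DMSO or in YK-4-279, a small molecule developed against the interaction of the EWS-FLI1 fusion protein with RNA helicase A, at a dose labelled 2 mM. The other pair was transfected with a scrambled control or against DHX9, the gene of RNA helicase A (siDHX9), and collected at 48 hours. The labels' protocol speaks of siRNAs and the series' design text of shRNAs. All 4 groups are cultures of 1 cell line, so p-values measure the spread between cultures, and fewer cells of a type cannot be told apart from less RNA per cell.

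An interval inside or across a gene can hold reads from several kinds of RNA. Introns are transcribed with the gene and are usually removed and degraded, some genes carry shorter transcripts within them, and others have an overlapping or antisense neighbour with its own promoter. DHX9 unwinds RNA duplexes and RNA-DNA hybrids and binds paired RNA that folds from inverted repeats, much of it intronic. EWS-FLI1, the driver of Ewing sarcoma, acts as a transcription factor at repeats and promoters and is also known to affect splicing together with DHX9. No source used here says if counting used the strand, so reads of an unnamed row and of the named row across the same bases cannot be told apart where they overlap.

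Counts recovered from the normalised values and summed over all rows ran from 38568983 to 65547726 a library. They are counts assigned to rows, some of which overlap, and not the number of reads sequenced. The 10 Ewing sarcoma markers listed for the label, CD99 (22230 to 35001 normalised reads), NR0B1, STEAP1, NKX2-2 and LIPI among them, were present in all 12 libraries, while of the blood list CD3E was at 0 in every library, HBB reached 1.99, PTPRC 9.02 and CD14 56.4. Of the endothelial list PECAM1 and VWF reached at most 1.49 and CDH5 12.8. Of the epithelial list EPCAM and CDH1 reached at most 18.03 while KRT8 ran from 42.7 to 87.5 and KRT18 from 188.7 to 331.1. Of the fibroblast list COL1A1 ran from 1287 to 2109, DCN from 183.1 to 599.0 and COL3A1 from 137.0 to 325.5. LUM ran from 31.2 to 112.5, and PDGFRA reached at most 6.49. DHX9, which shares 1 row with NPL, was at 32689 ± 2132 (SD, n = 3) in scrambled and 20608 ± 1098 (n = 3) in siDHX9 libraries, a log2 fold change of -0.66 ± 0.07 (SE; limma, adjusted p = 6.05e-05).

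Most of the 1880 rows lay within a gene. Calling the named row that shares most bases with it the partner of an unnamed row, 1352 rows lay wholly inside their partner, 384 crossed 1 of its ends and 144 surrounded it. There were 1555 distinct partners, of which 207 held 2 or more unnamed rows and 59 held 3 or more. Of the 1880 rows 206 touched more than 1 named row, up to 37, and 118 shared bases with another unnamed row of the set, so neighbouring rows are not independent. Lengths ran from 21 to 1180043 bases with a median of 2735.

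Levels were low for most rows and very high for a few. The median row averaged 32.5 normalised reads, 429 rows averaged over 100 and 44 over 1000. In read count, which is not corrected for length, the median row held 2.71% of the reads of its partner; 668 rows held at most 1% of it and 169 held more than the partner itself. In all, the rows took 0.574% to 0.675% of the reads of a library. That share was 0.657% ± 0.0187 (SD, n = 3) in DMSO and 0.585% ± 0.0109 (n = 3) in YK-4-279 libraries, each YK-4-279 library lying below each DMSO library. An exact two-sided permutation test gave p = 0.1, the smallest that 3 against 3 allows. Scrambled libraries held 0.649% ± 0.0167 and siDHX9 libraries 0.638% ± 0.0416 (n = 3 each, exact permutation p = 0.8).

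The rows with most reads illustrate how far some of them stood above the gene they touch. A 5358-base row at chr22:42481531-42486888 (hg19, as for all positions here), 7% of it within TCF20, a transcriptional coregulator, ran from 15160 to 18674 normalised reads in the 12 libraries. Inside RBFOX2, a splicing factor gene, a 1156-base row at chr22:36234325-36235480 ran from 12101 to 20047 where the RBFOX2 row averaged 699.8. A 1671-base row in SHC4, a signalling adaptor gene, at chr15:49170331-49172001, averaged 7814 against 13.9 for SHC4 as named. Each of these 3 blocks held more reads than the named row across the gene.

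Of the 59 genes with 3 or more unnamed rows 14 held only rows of at most 200 bases. TUBA1A and POM121, which held most of them, and TAOK3, with a pair of short rows, were singled out after their values had been seen. Inside TAOK3, a kinase gene, a 67-base row at chr12:118684118-118684184 averaged 9967 normalised reads and a 61-base row at chr12:118684408-118684468 averaged 4121, against 201.9 for TAOK3. The shorter of the pair rose with siDHX9 by 0.54 (limma, adjusted p = 0.0282) as TAOK3 fell by 0.66, and its adjusted p was 0.0566 to 0.0989 without scrambled replicate 1 or 2 or siDHX9 replicate 1 or 3. TUBA1A, an alpha-tubulin gene, held 6 rows of 24 to 98 bases averaging 33.1 to 1545, and POM121, a nuclear pore protein gene, held 9 rows of 32 to 77 bases averaging 11.3 to 75.8. None of the rows in TUBA1A and POM121 passed the test on its own in either comparison. A 32-base POM121 row at chr7:72417471-72417502 differed from its gene with siDHX9 by 1.77 (limma, adjusted p = 0.0106, and 0.216 without 3 libraries that stand apart, described with the knockdown), on 4.99 to 22.9 reads in the 6 libraries. The gene with most unnamed rows, POLRMT, the mitochondrial RNA polymerase, is listed over 3855069 bases of chromosome 19 and so spans many other genes; its 17 rows averaged 10.6 to 555.4 and none passed the test.

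YK-4-279 lowered more of these rows than it raised. Against DMSO 33 of the 1880 rows were higher and 140 lower (limma on all 17397 rows at that level, Benjamini-Hochberg adjusted p under 0.05), which is 1.76% and 7.45%. Over all rows tested 13.0% passed, 6.12% higher and 6.84% lower. The share of lower calls was near that of all rows and the share of higher calls below it. All rows tested had a median level of 314.7 normalised reads, against 32.5 for the 1880. Among the 3293 named rows averaging 10 to 100, with a median level of 38.6, 4.07% were higher and 1.70% lower. The median log2 fold change was -0.06 for the 1880 rows and 0.01 over all rows tested. It was -0.18 for the 1273 unnamed rows outside named genes, of which 25 were higher and 136 lower. Of these 173 rows 6 pass the minimum mean only through 1 of the 4 groups, as do 137 of all 1880. The count of 173 was 85 in the fit without DMSO replicate 2 (17 higher and 68 lower), 95 without DMSO replicate 3, and 105, 90 and 104 without YK-4-279 replicates 1, 2 and 3.

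Of the length classes, lower calls were most frequent among rows of over 2000 and up to 5000 bases, of which 74 of 644 were lower and 13 higher. For the 508 of them wholly inside their partner the median log2 fold change was -0.30, with 67 lower and 9 higher; for the 504 unnamed rows of the same length outside named genes it was -0.27, with 70 lower and 11 higher. At 200 bases or less 4 of 180 rows were lower and 1 higher, and from over 10000 to 100000 bases 10 of 372 were lower and 8 higher. Whether length classes differ in their response was not tested.

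**Figure D1:**
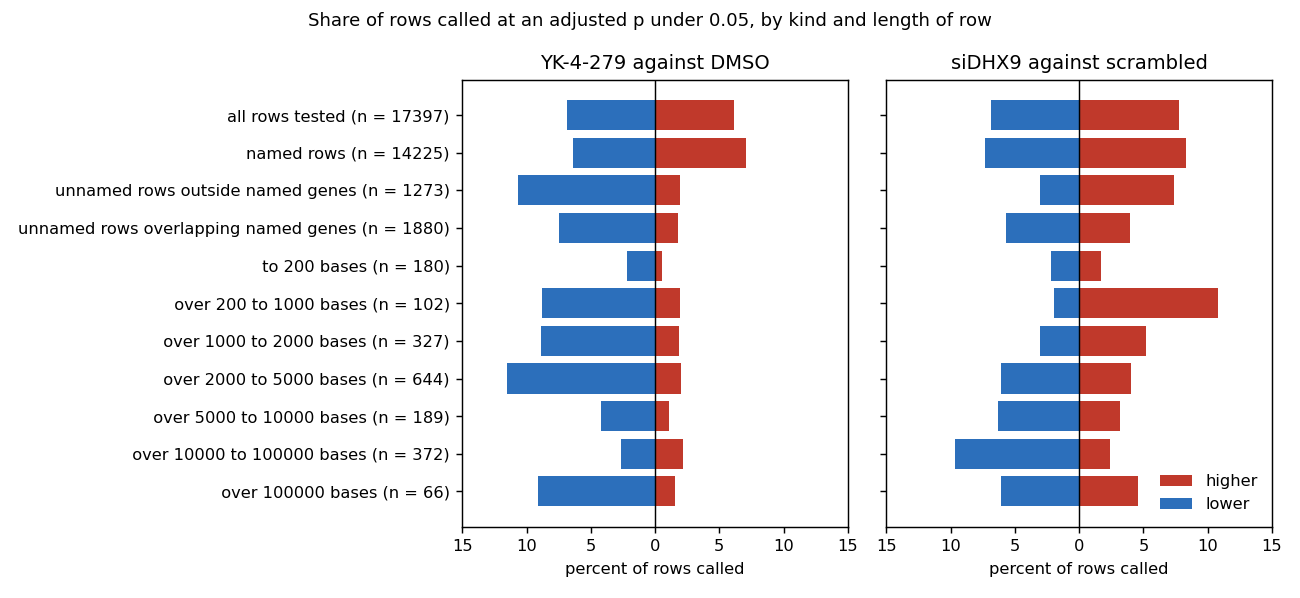
Percent of rows called lower (blue, drawn to the left of 0) and higher (red, drawn to the right) at a limma adjusted p under 0.05 in each comparison, for all rows, named rows, unnamed rows outside named genes, and the 1880 overlapping rows with their 7 length classes. With YK-4-279 the overlapping rows of over 2000 to 5000 bases show 11.5% lower and 2.02% higher, and with siDHX9 those of over 10000 to 100000 bases show 9.68% lower and 2.42% higher.

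The rises with YK-4-279 were led by a pair of rows over genes of immediate response and of histones. A row at chr1:149856012-149859515 surrounds HIST2H2AC, a replication-dependent histone H2A gene, and was at 164.1, 169.8 and 131.0 in DMSO and at 779.3, 774.2 and 829.1 in YK-4-279. All 3 YK-4-279 values lay far above the other 9 libraries, which ran from 82.8 to 169.8. The log2 fold change was 2.36 ± 0.19 (SE; limma, adjusted p = 9.81e-06), while the HIST2H2AC row itself went the other way, from 105.9, 117.2 and 133.5 to 70.3, 61.3 and 73.5 (-0.79 ± 0.20, adjusted p = 0.0205). The difference between row and gene was 3.15 on the log2 scale (limma on 4945 overlapping pairs, adjusted p = 0.00029). The unnamed row runs past HIST2H2AC on both sides. In RefSeq's gene order (assembly GRCh38.p14) a gene beside HIST2H2AC is HIST2H2BE, a histone H2B gene also named H2BC21. No row of the table carries either symbol, and genes on the other side are not described here. Which gene gave the reads was not tested.

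The second, a 428646-base row at chr14:75747486-76176131, begins within FOS, the immediate early transcription factor gene, and runs across JDP2, FLVCR2 and ERG28 into TTLL5. It was at 63.4, 62.6 and 33.4 in DMSO and at 326.4, 305.6 and 370.7 in YK-4-279, and at 0 to 4.62 in the 6 transfected libraries. Its log2 fold change with YK-4-279 was 2.68 ± 0.47 (limma, adjusted p = 0.00288), and its 5 named rows differed: FOS rose by 2.62 ± 0.21 (adjusted p = 9.94e-06) and FLVCR2, a transporter gene, by 1.07 ± 0.16 (adjusted p = 0.000835), while JDP2 (0.08), TTLL5 (0.01) and ERG28 (-0.33) did not pass. The row shares 1452 bases with FOS. FOS ran from 409.6 to 3937 in the DMSO and YK-4-279 libraries, where the reads of the unnamed row were 8.15% to 9.42% of those of FOS. They were 50.01% to 274.6% of those of FLVCR2, 6.12% to 75.9% of JDP2, 3.18% to 30.8% of TTLL5 and 0.512% to 7.12% of ERG28. In the 6 transfected libraries, where FOS was at 27.1 to 40.9, they were 0% to 14.3% of it. Which gene gave these reads was not tested.

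Further rises lay inside genes that did not pass the test themselves or rose less. A 2915-base row in TRAPPC12, a vesicle tethering gene, at chr2:3454789-3457703 went from 31.3, 43.7 and 36.0 to 96.2, 95.5 and 113.8 (log2 fold change 1.44 ± 0.22, limma, adjusted p = 0.00119), where TRAPPC12 stayed within 0.18 of its DMSO level. The row in TBC1D14, an autophagy regulator gene, at chr4:6987652-6988772 went from 50.7, 47.7 and 33.4 to 105.9, 110.6 and 90.7 (1.22 ± 0.21, adjusted p = 0.00241), and TBC1D14 had a fold change of -0.03. In PABPC1, the poly(A)-binding protein gene, a 1219-base row at chr8:101731632-101732850 went from 34.3, 40.7 and 19.3 to 141.6, 121.7 and 109.8. Its log2 fold change was 2.01 ± 0.38 (limma, adjusted p = 0.00445) against 0.34 for PABPC1, whose row averaged 136929 normalised reads. In these 3 rows every YK-4-279 value lay above every DMSO value, which was a condition for being named among the largest rises.

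A 34828-base row inside the joint row of NFE2L2, the gene of the antioxidant response factor NRF2, and LOC100130691 rose by 1.35 ± 0.30 (limma, adjusted p = 0.00967) from 46.3, 25.8 and 64.2 to 108.1, 120.6 and 102.8, while the named row did not pass (-0.12). The remaining rises of the 10 largest lay over TMEM184C (1.10), UBE3C (0.98), DEXI (0.98) and MAZ (0.89). Those 4 calls depended on single libraries. The adjusted p for TMEM184C was 0.0853 to 0.129 without any 1 of the 6 libraries compared, and for UBE3C 0.0619 to 0.0822 without DMSO replicate 3 or YK-4-279 replicate 1 or 2. For DEXI it was 0.053 to 0.0737 without DMSO replicate 3 or any 1 YK-4-279 replicate, and for MAZ 0.0544 to 0.14 without replicate 2 or 3 of either group.

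**Figure D2:**
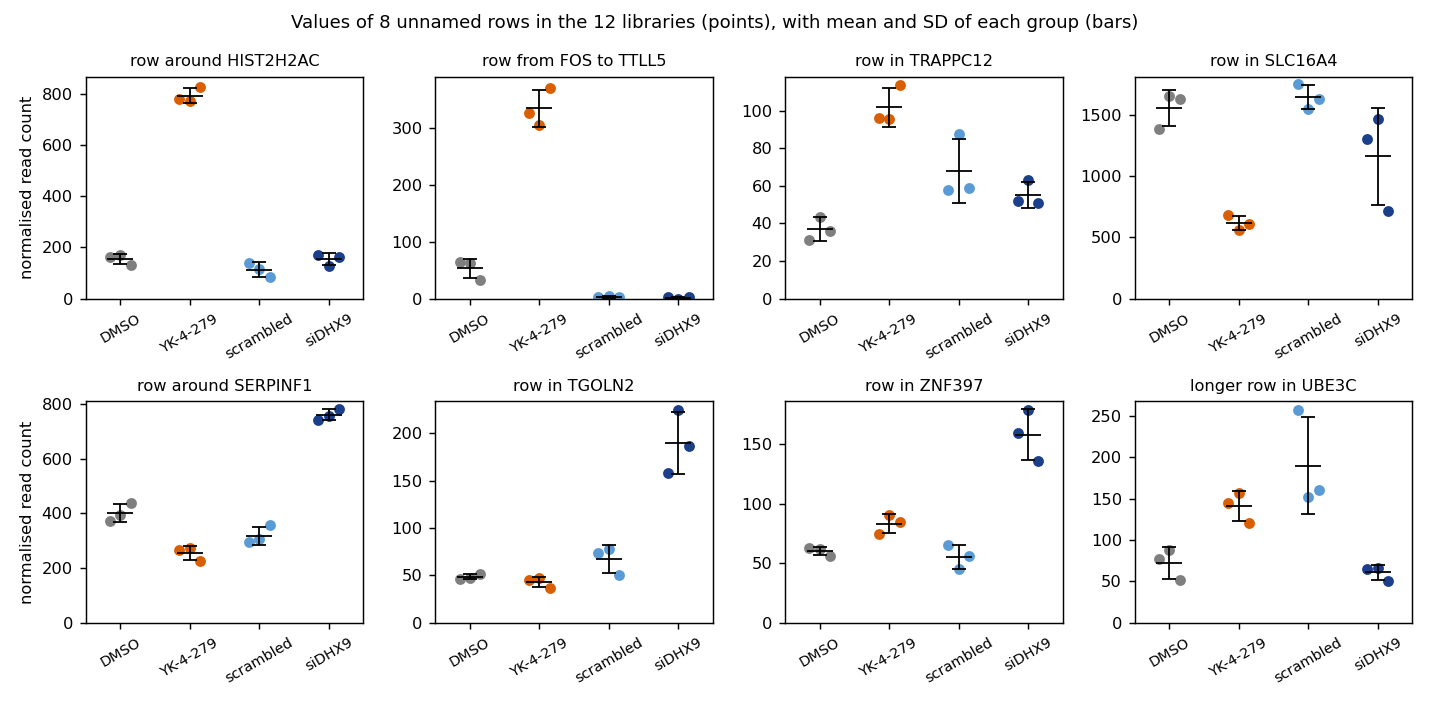
Normalised read count of 8 unnamed rows in each of the 12 libraries (points, y axis from 0), with the mean and SD of the 3 libraries of each group as bars. The row around HIST2H2AC and the row from FOS to TTLL5 stand highest in YK-4-279, the row in SLC16A4 stands lowest there, and the rows over SERPINF1, TGOLN2 and ZNF397 stand highest in siDHX9.

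Among the falls with YK-4-279 the row with most reads lay in SLC16A4, a gene of the monocarboxylate transporter family. This 4605-base row at chr1:110911021-110915625 was at 1391, 1658 and 1636 in DMSO and at 682.0, 565.1 and 606.5 in YK-4-279. The 2 groups lay far apart, and the log2 fold change was -1.34 ± 0.20 (limma, adjusted p = 0.000963). SLC16A4 as named averaged 155.1 and had a log2 fold change of 0.26, so the row fell relative to its gene by 1.60 (adjusted p = 0.00708). With siDHX9 the row was at 1306, 1474 and 718.7, against 1754, 1556 and 1638 in scrambled, and did not pass (adjusted p = 0.0708).

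Falls of a like size occurred in genes of varied function. In LRRC41, a ubiquitin ligase adaptor gene, a row at chr1:46746477-46748694 went from 86.5, 70.5 and 92.5 to 34.6, 35.2 and 24.2 (log2 fold change -1.39 ± 0.25, limma, adjusted p = 0.0032). In DSCC1, a sister chromatid cohesion gene, a row at chr8:120850992-120852625 fell by 1.35 ± 0.25 (adjusted p = 0.00347), from 98.5, 154.9 and 132.3 to 60.5, 46.2 and 42.3. The DSCC1 row itself also fell, by 0.60. Each of these rows had all YK-4-279 values below all DMSO values, a condition for being named among the largest falls.

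A 439-base row in NAA20, an N-terminal acetyltransferase gene, at chr20:20005672-20006110 went from 85.8, 61.6 and 78.3 to 39.99, 33.2 and 23.2 (log2 fold change -1.22 ± 0.26, limma, adjusted p = 0.00838), with no change past the test in NAA20. Others of the 10 largest falls lay in DIAPH3 (-1.75), CMIP (-1.70), ROBO1 (-1.32), ZNF726 (-1.30) and MALSU1 (-1.22). Their calls rested on single libraries. Adjusted p reached 0.0763 to 0.135 for DIAPH3 without any 1 DMSO replicate or YK-4-279 replicate 1 or 2, and 0.052 to 0.0579 for CMIP without DMSO replicate 2 or 3 or YK-4-279 replicate 1. It reached 0.0969 to 0.111 for ROBO1 without DMSO replicate 2 or 3 or YK-4-279 replicate 1 or 3, 0.0775 to 0.0847 for ZNF726 without DMSO replicate 2 or 3 or YK-4-279 replicate 1, and 0.05 for MALSU1 without YK-4-279 replicate 2.

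A set of 6 rows lay in FTX, a long noncoding RNA gene of the X inactivation centre, and 5 of them were called lower with YK-4-279 (a group singled out after its values had been seen). Over all rows tested 6.84% were lower with YK-4-279. The one with most reads, at chrX:73416194-73418548, was at 1352, 1491 and 1583 in DMSO and at 798.8, 758.1 and 843.2 in YK-4-279 (log2 fold change -0.88 ± 0.16, limma, adjusted p = 0.00342). A 2885-base row at chrX:73486220-73489104 went from 299.9, 441.9 and 536.7 to 138.3, 259.4 and 174.3 (-1.16 ± 0.23, adjusted p = 0.0051), and a 1941-base row at chrX:73443169-73445109 from 84.3, 136.0 and 102.7 to 41.1, 52.3 and 38.3 (-1.26 ± 0.25, adjusted p = 0.0055). No YK-4-279 value of these 3 rows reached a DMSO value.

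The other FTX rows ran the same way with less support. The rows of 2749 and 3690 bases had log2 fold changes of -0.73 and -0.96, and each call was lost in some fits without a single library of the comparison: adjusted p of 0.0633 to 0.129 without any 1 of the 6 libraries for the first, and 0.0514 to 0.104 without any but DMSO replicate 1 for the second. The sixth, of 2940 bases, had -0.95 and did not pass (adjusted p = 0.0747). FTX as named averaged 29.7 normalised reads with a log2 fold change of 0.07. No difference between an FTX row and FTX itself passed the test with YK-4-279 (adjusted p 0.086 to 0.25). With siDHX9 1 of the 6 rows was called higher and 1 lower, where 7.74% and 6.86% of all rows were. The lower one, of 3690 bases, had -0.85 (limma, adjusted p = 0.0418, and 0.051 to 0.159 over the fits without 1 library that ended the call). The higher one, of 1941 bases, had a limma adjusted p of 0.0349, and 0.0745 to 0.11 over such fits.

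**Figure D3:**
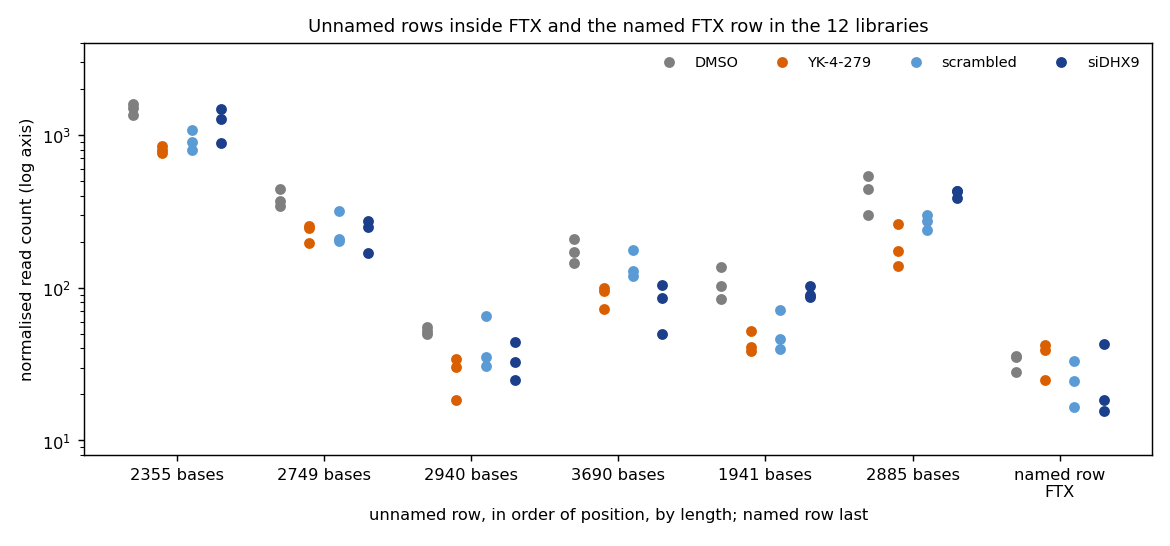
Normalised read counts on a log axis of the 6 unnamed rows inside FTX, in order of position and labelled by length, and of the named FTX row, with 3 points for each of the 4 groups. YK-4-279 points lie below the DMSO points in all 6 unnamed rows, and the unnamed row of 2355 bases stands highest, between 758.1 and 1583.

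With DHX9 knockdown 75 of the 1880 rows were higher and 107 lower than in scrambled libraries (limma, adjusted p under 0.05), which is 3.99% and 5.69%. Over all rows tested 14.6% passed, 7.74% higher and 6.86% lower, so both shares lay below those of all rows. Among the 3293 named rows averaging 10 to 100 normalised reads 6.50% were higher and 2.64% lower. The median log2 fold change of the 1880 rows was -0.19, against -0.01 over all rows tested. Of 372 rows of over 10000 and up to 100000 bases 36 were lower and 9 higher, with a median of -0.51. Of these 182 rows 5 pass the minimum mean only through 1 group. Leaving out 1 library moved the count of 182 widely: the fits without scrambled replicate 1, scrambled replicate 2 and siDHX9 replicate 3 gave 63, 94 and 70.

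Rows with few reads beside their partner had the lowest median. Among the 668 rows at most 1% of their partner 49 were lower and 9 higher with siDHX9, and the median log2 fold change was -0.53. Among the 1212 rows over 1% the counts were 58 lower and 66 higher, with a median of -0.03. The share called lower had no order by level: it was 7.34% at up to 1% of the partner, 3.83% from there to 10%, 5.63% to 100% and 6.51% above the partner, against 6.86% over all rows, and the classes were not tested against each other. With YK-4-279 the rows at most 1% of their partner gave 15 lower and 8 higher (2.25% and 1.20%). Those over 1% gave 125 lower and 25 higher (10.3% and 2.06%). Over all rows tested 6.84% were lower and 6.12% higher with YK-4-279, and these classes were not tested against each other.

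Those rows of few reads beside abundant genes did not behave alike within a group. The median deviation of the 668 rows from their own mean over the 12 libraries was -0.25 in DMSO replicate 2 and -0.35 and -0.52 in siDHX9 replicates 2 and 3, and between 0.09 and 0.30 in the other 9 libraries. For the 1212 rows over 1% of their partner every library lay between -0.09 and 0.16, and for the named rows between -0.01 and 0.03. Leaving out these 3 libraries together, an alternative chosen after seeing the data, left 25 rows called with siDHX9 (8 higher and 17 lower) and 128 with YK-4-279 (28 higher and 100 lower). It leaves siDHX9 with 1 library, which is assumed to vary like the other groups. What sets the 3 libraries apart was not tested.

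**Figure D4:**
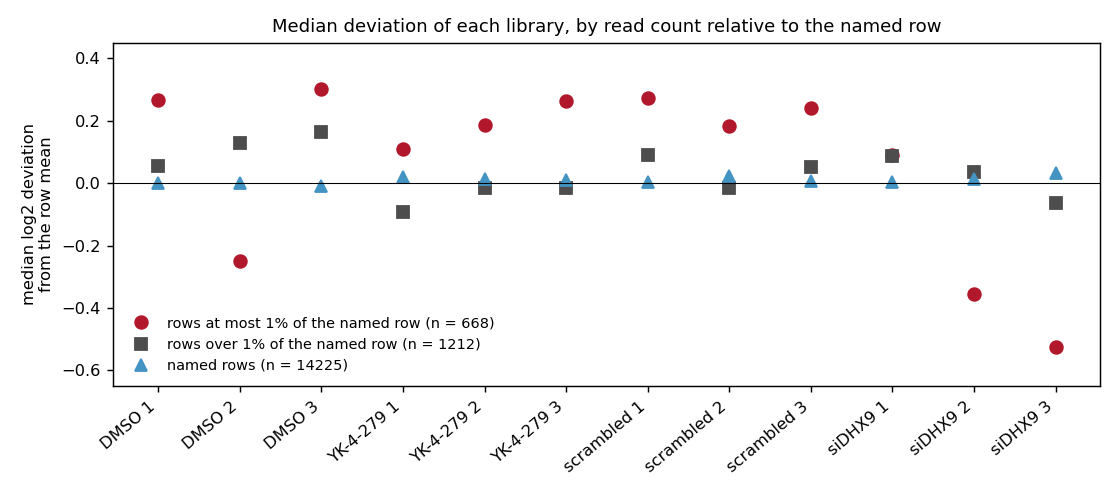
Median over rows of the log2 deviation from the mean of each row, for each of the 12 libraries, for 668 unnamed rows at most 1% of their partner in reads (circles), 1212 above 1% (squares) and 14225 named rows (triangles). Circles lie below -0.2 in DMSO 2, siDHX9 2 and siDHX9 3 only, while squares and triangles stay near 0 in all libraries.

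The rise with the smallest adjusted p under siDHX9 lay around SERPINF1, the gene of the secreted factor PEDF. This 15813-base row at chr17:1665179-1680991 was at 294.8, 305.2 and 356.1 in scrambled and at 741.8, 756.5 and 781.4 in siDHX9, with a log2 fold change of 1.26 ± 0.12 (limma, adjusted p = 2.69e-05). With YK-4-279 it went the other way, from 373.0, 394.2 and 439.1 to 265.9, 273.5 and 225.7 (-0.66 ± 0.12, adjusted p = 0.00326). SERPINF1 itself rose in both, by 0.37 and 0.34. The 2 effects on the row differed by 1.91 (limma, adjusted p = 4.7e-05). The groups of neither comparison overlapped, which for siDHX9 was a condition for being named among the largest rises.

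Other rises lay within genes that did not rise. In ZNF397, a zinc finger gene, a row at chr18:32840250-32842945 went from 64.9, 45.3 and 55.9 to 159.3, 178.4 and 136.2 (log2 fold change 1.5 ± 0.19, limma, adjusted p = 0.000291). A 3467-base row in TGOLN2, the gene of a protein of the trans-Golgi network, at chr2:85540303-85543769 went from 73.9, 77.7 and 50.9 to 158.3, 224.1 and 187.0 (1.49 ± 0.21, adjusted p = 0.000837), whereas TGOLN2 fell by 0.46, a difference of 1.95 (adjusted p = 0.00369). Without the 3 libraries that stand apart the adjusted p of the TGOLN2 row was 0.0658 and that of its difference from the gene 0.171.

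A 1491-base row in TCF20 at chr22:42533795-42535285 went from 47.8, 47.2 and 61.9 to 147.9, 117.1 and 144.8 (log2 fold change 1.37 ± 0.22, limma, adjusted p = 0.00153), with TCF20 at -0.01. A 27970-base row at chr1:113392522-113420491, 2.66% of it within LINC01356, a long noncoding RNA gene, rose by 1.34 ± 0.18 (adjusted p = 0.000561) and LINC01356 by 1.49. A row over TMEM102 at chr17:7338538-7340817 rose by 1.30 ± 0.26 (adjusted p = 0.0059), from 59.5, 72.1 and 61.9 to 195.5, 105.2 and 196.7. In all 3 rows the lowest siDHX9 value exceeded the highest scrambled value, as the rule for naming the largest rises required.

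The rows over AKAP8 (1.25, adjusted p = 0.00478), DNASE1 (1.31), SEMA3C (1.26) and CCT5 (1.22) make up the rest of the 10 largest rises. Without the 3 libraries together the adjusted p for AKAP8 was 0.0721. It was 0.0515 for DNASE1 without scrambled replicate 1, and 0.0548 to 0.0965 for SEMA3C without scrambled replicate 1 or siDHX9 replicate 1 or 3. For CCT5 it was 0.0557 without scrambled replicate 2 and 0.0566 without siDHX9 replicate 1. Of the rows with most reads, the one in RBFOX2 rose by 0.52 ± 0.08 (limma, adjusted p = 0.00134), from 12341, 12101 and 12918 to 17236, 16629 and 20047, while RBFOX2 had 0.07.

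Falls with siDHX9 were clearest in 3 rows within genes. A 2049-base row in ICE2, a gene of the complex for small nuclear RNA transcription, at chr15:60737702-60739750 went from 250.7, 198.8 and 225.4 to 111.7, 102.4 and 41.1 (log2 fold change -1.51 ± 0.29, limma, adjusted p = 0.0048), with ICE2 at -0.05. A 7796-base row at chr7:102287618-102295413, in the joint row of RASA4, POLR2J2 and UPK3BL1, went from 93.8, 81.4 and 68.8 to 20.7, 34.8 and 21.6 (-1.65 ± 0.28, adjusted p = 0.00262). These genes belong to a region of near-identical copies, so the origin of its reads is uncertain.

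The third lay in UBE3C, a ubiquitin ligase gene, where 2 neighbouring rows moved alike. The row at chr7:157026561-157028828 was at 257.0, 151.7 and 160.6 in scrambled and 65.2, 66.8 and 50.8 in siDHX9 (log2 fold change -1.59 ± 0.24, limma, adjusted p = 0.00125), and at 77.6, 88.4 and 51.4 in DMSO and 144.8, 156.8 and 120.9 in YK-4-279. The row at chr7:157024081-157025456 fell by 1.32 ± 0.19 with siDHX9 (adjusted p = 0.00101) and rose by 0.87 ± 0.19 with YK-4-279 (adjusted p = 0.0108). UBE3C as named had -0.39 and -0.02, neither past the test. The effects of drug and knockdown differed by 2.57 for the longer row (adjusted p = 0.00078) and 2.18 for the shorter (adjusted p = 0.000439). The rise of the shorter row had an adjusted p of 0.054 without DMSO replicate 1 and 0.0547 without YK-4-279 replicate 3.

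The other large falls were of rows that run along most of an abundant gene at under 1% of its reads: over PSMB1 (-2.11), a proteasome subunit gene, KARS (-2.08) and AARS (-1.49), both aminoacyl-tRNA synthetase genes, PHGDH (-1.57), of serine synthesis, SLC25A3 (-1.56), of mitochondrial phosphate transport, and PRRC2A (-1.52). Their partners averaged 22806 to 68962 normalised reads and had log2 fold changes between -0.29 and 0.03, none past the test. The row over KARS was at 73.9, 77.7 and 57.9 in scrambled and 45.5, 7.32 and 10.8 in siDHX9, and at 59.7, 21.9 and 69.3 in DMSO. Low values thus fell in siDHX9 replicates 2 and 3 and in DMSO replicate 2. Without those libraries together the adjusted p of these 6 rows was 0.161 to 0.331. Each of the 6 calls was also lost without scrambled replicate 1 (adjusted p 0.0583 to 0.121) and without siDHX9 replicate 3 (0.0514 to 0.186). Scrambled replicate 2 also ended the calls of KARS and PRRC2A (0.0514 to 0.0829 over such fits). For PSMB1, PHGDH and SLC25A3 further single libraries did so: any scrambled replicate and YK-4-279 replicates 1 and 3 for all 3, siDHX9 replicate 2 for PSMB1 and SLC25A3, and DMSO replicate 1 and YK-4-279 replicate 2 for PSMB1 and PHGDH (0.0523 to 0.186 over such fits).

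The row in DIAPH3, a formin gene of the actin cytoskeleton, completes the 10 largest falls. It was at 49.2, 72.5 and 56.5 in DMSO, 10.8, 12.1 and 35.3 in YK-4-279, 89.3, 72.1 and 28.9 in scrambled and 25.9, 23.8 and 9.73 in siDHX9. It had -1.60 with siDHX9 (limma, adjusted p = 0.0488), and that call was lost without any 1 of the libraries but scrambled replicate 3, siDHX9 replicate 2 and YK-4-279 replicate 3 (adjusted p 0.0527 to 0.183).

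Most called rows had a partner that was not called. Of the 140 rows lower with YK-4-279 the partner was lower too in 18, higher in 8 and not called in 114; of the 33 higher rows it was higher in 9, lower in 1 and not called in 23. With siDHX9 the partner of the 107 lower rows was lower in 22, higher in 3 and not called in 82, and that of the 75 higher rows was higher in 9, lower in 2 and not called in 64. The partner was thus called for 20.8% of the rows called with YK-4-279 and 19.8% of those called with siDHX9, where it was called for 15.4% and 16.5% of all 1880. Pearson's r between the log2 fold changes of row and partner was 0.18 with YK-4-279 and 0.08 with siDHX9 over 1880 pairs. The pairs come from the same libraries, share partners and hold many sparse counts, so r is a description.

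The test of the difference between row and partner called fewer rows. With YK-4-279 51 rows differed from their partner, 8 above it and 43 below (2.71%, where 4.39% of all overlapping pairs were called), and with siDHX9 61 rows, 34 above and 27 below (3.24%, where 4.41% of all pairs were called). Of these, 43 and 35 also passed on their own. The 51 became 19 to 33 without any 1 of the 6 libraries compared, and the 61 became 12, 19 and 17 without scrambled replicate 1 or 2 or siDHX9 replicate 3, and 108 without scrambled replicate 3. Fitting only the 6 libraries of each comparison gave 53 rows with YK-4-279 and 2 with siDHX9. With YK-4-279 the largest falls relative to the gene, beside LRRC41 (-1.79) and SLC16A4, were in PNPLA2, a triglyceride lipase gene (-1.62, adjusted p = 0.022), XRRA1 (-1.62, adjusted p = 0.00968) and DNHD1 (-1.58, adjusted p = 0.0129).

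In PNPLA2 the row at chr11:781562-783448 fell from 236.5, 332.7 and 229.8 to 126.5, 99.5 and 132.0 as PNPLA2 rose by 0.48, and in XRRA1 a 406-base row fell from 158.9, 135.0 and 160.5 to 95.1, 105.6 and 85.6 as XRRA1 rose by 0.96. Row and gene thus moved apart in both. In DNHD1 the row did not pass on its own (-0.43) and DNHD1 rose by 1.15. Relative to the gene the LRRC41 row had an adjusted p of 0.0621 to 0.0725 without DMSO replicate 1 or YK-4-279 replicate 2 or 3, PNPLA2 of 0.0515 to 0.087 without any 1 DMSO replicate or YK-4-279 replicate 1 or 2, and DNHD1 of 0.0504 without YK-4-279 replicate 1. On its own the XRRA1 row had 0.0592 to 0.0818 without replicate 1 or 3 of either group. Relative to their genes these 4 rows had 0.0592 to 0.073 without the 3 libraries that stand apart.

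With siDHX9 the largest rise relative to the gene lay in MAP1B, a neuronal microtubule-associated protein gene. The row, which covers nearly all of MAP1B at chr5:71403242-71505416, was at 46.9, 37.0 and 38.9 in scrambled and 57.9, 53.1 and 60.5 in siDHX9 (log2 fold change 0.48, limma, adjusted p = 0.232), while MAP1B fell by 1.60 (adjusted p = 2.33e-07). The difference was 2.08 (adjusted p = 0.00966), and 0.171 was its adjusted p without the 3 libraries that stand apart. A row in the joint row of PPP1CB and SPDYA behaved likewise, at 0.49 against -0.99 for the genes (difference 1.47, adjusted p = 0.0191), with adjusted p of 0.0556 to 0.0727 without scrambled replicate 1 or 2 or siDHX9 replicate 1 or 3.

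**Figure D5:**
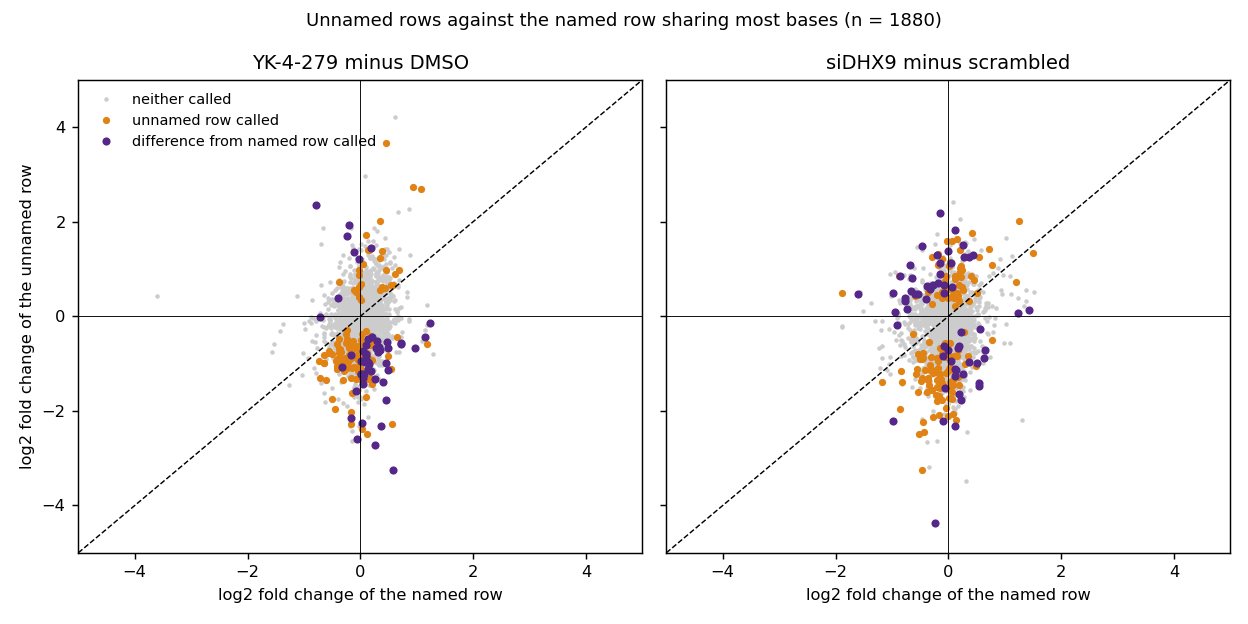
Log2 fold change of each of the 1880 unnamed rows (y axis) against that of the named row sharing most bases with it (x axis), for YK-4-279 minus DMSO and siDHX9 minus scrambled. Orange points are rows called on their own, purple points those whose difference from the named row was called, and the dashed line marks equal change. Called rows spread vertically at named-row changes near 0, with r = 0.18 and 0.08.

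Rows called in both comparisons numbered 30, which is 17.3% of the 173 called with YK-4-279 and 16.5% of the 182 called with siDHX9. Of all rows tested 434 were called in both, 19.2% of those called with YK-4-279 and 17.1% of those called with siDHX9, 164 of them higher in both and 140 lower in both. The comparisons have separate controls. Of the 30 unnamed rows 5 were higher in both and 11 lower in both, 6 were higher with YK-4-279 and lower with siDHX9, and 8 the reverse. Those higher in both include a row over GNMT, glycine N-methyltransferase, at chr6:42927754-42929645. It went from 64.2, 77.5 and 89.9 to 126.5, 111.6 and 125.9 with YK-4-279 (0.66, limma, adjusted p = 0.0243) and from 46.0, 47.2 and 45.9 to 102.4, 98.8 and 95.1 with siDHX9 (1.07, adjusted p = 0.00161). In the first comparison adjusted p was 0.0536 to 0.111 when a library other than DMSO replicate 3 was left out, and without the 3 libraries that stand apart it was 0.0705 in the first and 0.0513 in the second. A row in POLH, a translesion DNA polymerase gene, was lower in both, by 1.05 and 0.85 (adjusted p = 0.0135 and 0.0343), and the first call was lost without DMSO replicate 2 or YK-4-279 replicate 1 or 2 (0.0606 to 0.0632). The second was lost without any 1 scrambled library or siDHX9 replicate 1 or 3 (0.0525 to 0.12).

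The direct test of drug effect minus knockdown effect called 144 rows, 49 higher and 95 lower (7.66%; 9.28% of all rows were called, 3.87% higher and 5.41% lower). The count was 75 without DMSO replicate 2, 91 without DMSO replicate 3, 79 and 81 without YK-4-279 replicates 1 and 3, and 80 and 93 without scrambled replicates 1 and 2. Beside the rows of UBE3C, SERPINF1, HIST2H2AC and FOS given above, the largest negative difference was that of a 10105-base row in CTSV, a cathepsin gene. It stood at 22.4, 25.8 and 32.1 in DMSO, 15.1, 2.01 and 2.01 in YK-4-279, 29.8, 14.8 and 9.98 in scrambled, and 60, 51.2 and 60.5 in siDHX9, a difference of -4.12 (limma, adjusted p = 0.00748). Of the YK-4-279 values 2 rest on few reads. Without the 3 libraries that stand apart the adjusted p was 0.081.

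Few rows lay over the gene groups linked to this system. Of all rows tested 13.0% were called with YK-4-279 (6.12% higher, 6.84% lower) and 14.6% with siDHX9 (7.74% higher, 6.86% lower). Of the 1880 rows 9.20% and 9.68% were called. The lists hold 2 to 8 rows each, too few to set against these shares, and were not tested as sets. None of 6 rows over FLI1 and genes linked to EWS-FLI1 (BCL11B, CAV1, EZH2, FOXO1 and LOX) was called. The row with most reads among them, a 2878-base row inside FLI1 at chr11:128659852-128662729, was at 867.7, 939.4 and 1056 in DMSO, 1109, 1247 and 1194 in YK-4-279, 808.8, 733.3 and 770.1 in scrambled and 736.6, 593.7 and 714.4 in siDHX9. YK-4-279 values lay above DMSO values without passing (log2 fold change 0.31 ± 0.11, limma, adjusted p = 0.0723), and the named FLI1 row, of 126732 bases, averaged 128.6. Of 7 rows over cell cycle and replication genes RRM2, a ribonucleotide reductase subunit, had the 1 row lower with YK-4-279 (-0.95, adjusted p = 0.0431), as RRM2 fell by 0.74. Leaving out DMSO replicate 1 or 3, any YK-4-279 replicate, or scrambled replicate 1 or 3 ended that call (0.0525 to 0.164). TPX2, a spindle assembly factor, had the 1 row lower with siDHX9 (-1.37, adjusted p = 0.0409), and the adjusted p was 0.23 without the 3 libraries and 0.0504 to 0.156 when any YK-4-279 or scrambled replicate, DMSO replicate 3 or siDHX9 replicate 3 was left out.

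Of 8 rows over genes of the ATF4 stress response 3 were lower with siDHX9, over AARS, PHGDH and ASNS, and none was called with YK-4-279. Of all rows tested 6.86% were lower with siDHX9, and of the 1880 rows 5.69%. The called ASNS row, of 20404 bases, the longer of 2 in that gene, was at 57.7, 37.0 and 18.0 in scrambled and 12.4, 9.15 and 4.32 in siDHX9 (-1.96 ± 0.54, limma, adjusted p = 0.0286). Its adjusted p was 0.119, 0.0816 and 0.107 without scrambled replicate 1, scrambled replicate 2 and siDHX9 replicate 3, and 0.28 without the 3 libraries. Of 8 rows over hosts of small nucleolar RNAs 3 were lower with siDHX9, in NCL (-1.14), SNHG5 (-1.01) and the joint row of SENP3 and EIF4A1 (-1.39). Those 3 rows were low in siDHX9 replicates 2 and 3, and without the 3 libraries together their adjusted p was 0.222 to 0.443. Single libraries ended these calls too: scrambled replicates 1 and 3 and siDHX9 replicate 3 for all 3, scrambled replicate 2, siDHX9 replicate 2 and any YK-4-279 replicate for NCL and EIF4A1, and DMSO replicate 3 for NCL (0.0534 to 0.16). Among 3 rows over neuronal genes the row across NEFM, the neurofilament medium chain, rose with siDHX9 from 338.1, 282.1 and 447.9 to 560.7, 594.6 and 581.5 (0.73 ± 0.14, limma, adjusted p = 0.00609), as NEFM rose by 1.21. Its adjusted p was 0.113 without the 3 libraries. None of 3 rows over DExD/H box helicase genes and none of 2 over immediate early genes, DUSP6 and EGR4, was called. These lists count a row under its partner, so the row that begins within FOS is not among them.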

How the data were processed

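RNA was sequenced from 12 libraries of TC-71 cells. The deposited table holds signal: read counts that the authors, going by the table's name and the values, divided by 1 DESeq size factor a library. Tools named in the submitters' processing notes were FastQC, Picard, SAMtools, STAR 2.4.0 and DESeq, and per the file headers positions are on hg19. No source used here gives the counting rules. Each value divided by what 1 read is worth in its library came out whole (tolerance 0.1 reads) for 100% of values, and 59.8% to 63.4% of values of 1 to 20 reads were even.

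Rows with a mean of at least 10 (17397, of them 14225 named) were fitted in limma 3.58.1 (R 4.3.3) as log2(value + 1), 1 mean per group, with a mean-variance trend, 8 residual degrees of freedom and Benjamini-Hochberg adjustment over all rows. Fold changes are on that scale, which understates changes of low rows. Row minus partner was fitted likewise over 4945 overlapping pairs. Recovered reads were also tested with edgeR 4.0.16 and DESeq2 1.42.0. Only the limma fit of single rows was tried on simulated counts, in which every row had the same setting of spread and no library stood apart. The simulation therefore does not bear on the row minus partner, edgeR and DESeq2 fits or on the 3 libraries that stand apart. Rows named are, per comparison, the 10 largest called rises and falls with groups that do not overlap and 50 or more reads on average in the higher one, the largest called differences from the partner and between effects, the highest levels, rows called in both, rows over listed genes, and groups marked as chosen later. The rows and lists were chosen with earlier results of these data known.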

Additional observations from a re-analysis of the deposited data

How the results depend on the processing

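No called value of the 1880 rows turned its direction in an alternative that gave it a value. With no minimum on rows entering the fit, fewer rows were called: 108 with YK-4-279, 93 with siDHX9, 77 for the difference of the effects, and 6 and 3 relative to the partner. Fitting unnamed rows alone left 104 with siDHX9, and fitting the 6 libraries of that comparison alone left 41, and 2 relative to the partner. Adding 10 instead of 1 gave 101 rows differing from their partner with siDHX9, and a minimum mean of 50 gave 94. Without DMSO replicate 2 and siDHX9 replicates 2 and 3 together, an alternative chosen after seeing the data, the counts were 128, 25, 28, 8 and 2 in the order YK-4-279, siDHX9, difference of effects, and relative to the partner with YK-4-279 and siDHX9. Leaving out 1 library at a time gave 85 to 209 rows with YK-4-279, 63 to 245 with siDHX9, 75 to 162 for the difference, and relative to the partner 19 to 65 with YK-4-279 and 12 to 108 with siDHX9; the last was lowest without scrambled replicate 1 and highest without scrambled replicate 3. The cause of these shifts was not tested. Recovered reads gave 167, 180 and 143 rows with edgeR and 209, 260 and 213 with DESeq2. Replicate numbers were not used to pair the samples. With the replicate block the counts were 154, 186, 134, 44 and 56. Correlations were of log2 values of rows averaging at least 10, after subtracting each row's mean in the group. They thus compare deviations within groups and not whole profiles. On that scale same-numbered libraries of DMSO and YK-4-279 correlated by -0.03 to 0.04, and the best with another number by 0.02 to 0.08. For scrambled and siDHX9 these were 0.02 to 0.08 and -0.02 to 0.05. Scrambled replicates 1 and 2 correlated best with the siDHX9 library of their own number, and no DMSO replicate did so with YK-4-279. These values do not settle if the numbers pair the samples. Of 147 called values of the listed rows, 62 stayed called without each library in turn and 37 under every alternative. The share of reads taken by the rows kept its direction with YK-4-279 (differences of -0.0814 to -0.0627 percentage points without 1 library); with siDHX9, where it did not pass, the difference was -0.0235 to 0.0127. Rows near 10 normalised reads rest on few reads, which limits the changes that could be detected in them.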
